A study of Mus musculus with 2 samples.

Results

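Mesenchymal cells of the fat around the mouse aorta that held transcripts of at least 3 of the 4 genes Pparg, Lpl, Cebpa and Hp were described in 2 single-cell libraries of wild-type (WT) mice, 1 young and 1 old. A mesenchymal cell was a barcode with at least 500 detected genes, at most 10% mitochondrial unique molecular identifiers (UMIs, each standing for 1 captured transcript), at least 10 UMIs of Col1a1, Col1a2 and Col3a1 together, and 0 UMIs of Pecam1, Cdh5, Ptprc, Upk3b, Sox10, Adipoq, Top2a and Mki67. The rule gave 499 members among 7336 mesenchymal cells of the young library and 1383 among 6568 of the old library, that is 1882 of all 27740 barcodes. They were set against mesenchymal cells of the same library with none of the 4 genes, 2419 young and 529 old.

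Both libraries came from collagenase digests of perivascular adipose tissue, and the labels call the cells primary perivascular stromal cells. Both groups are labelled WT with no treatment besides age. How old the mice were, their sex, how many were pooled per library and whether cells were cultured is not stated in the labels. There were 13104 young barcodes with 130398999 UMIs and 14636 old barcodes with 147166475 UMIs. Members had median depths of 8115 and 8587 UMIs, and cells with none 8400 and 8388, and 275 barcode sequences occurred in both libraries, among them 11 young and 31 old members. Because each age is 1 library, age and library cannot be told apart and p-values are left out, and all intervals are 95% intervals that cover counting error only.

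Fat cells arise from fibroblast-like precursors in the stroma of adipose tissue. In such precursors the C/EBP factors and PPARγ, the product of Pparg, are known to switch on each other and then the genes of lipid uptake and storage. Lpl encodes lipoprotein lipase, which frees fatty acids from circulating lipoproteins, Cebpa encodes C/EBPα, and Hp encodes haptoglobin, a haemoglobin-binding acute-phase protein that fat tissue also makes. Lpl and Hp are also made by cells that are not on the way to becoming adipocytes.

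The members held little Pparg, so the name "adipogenic" rests mostly on the other genes. Pparg (chromosome 6, 115360951 to 115490399, plus strand, GRCm38) was held by 135 of the 499 young members (27.1%, 23.2 to 31.2) and by 474 of the 1383 old members (34.3%, 31.8 to 36.8). Lpl (chromosome 8, 68880491 to 68907448, plus strand) was held by 98.8% of young and 99.0% of old members. Cebpa (chromosome 7, 35119293 to 35121928, plus strand) was held by 88.6% and 81.4%, and Hp (chromosome 8, 109575128 to 109579172, minus strand) by 93.6% and 98.9%. The combination of Lpl, Cebpa and Hp without Pparg made up 364 young and 909 old members. All 4 genes together were held by 40 young and 188 old members. These shares chose the members and are given as a description.

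No member held Adipoq, which the rule excluded. Of the 10 adipocyte markers found in the files (Adipoq, Plin1, Cidec, Retn, Lep, Car3, Ucp1, Adig, Acvr1c and Pck1), 8 were at 0 in young members and 3 in old members. Their summed level was 6.09 CPM (counts per class divided by its summed UMIs, on the usual scale) in young members and 11.0 CPM in old members. Cells with none of the 4 genes stood at 1.06 and 7.78 CPM, and the 88 adipocyte barcodes of the old library at 8928 CPM. They are called members rather than adipocyte precursors below. All 10 fibroblastic markers were detected in the members of both libraries, but the rule itself asked for 3 of them, the collagens Col1a1, Col1a2 and Col3a1. The 7 that it did not use (Pdgfra, Dcn, Lum, Dpt, Mfap5, Fbn1 and Ly6a) summed to 1574 CPM in young cells with 3 rule genes and 1491 CPM with 4, against 921 CPM in cells with none. In old cells the sums were 1945, 1891 and 1665 CPM.

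The promoters of Pparg, Kng2 and Sfrp2 are shown because they hold matches to the C/EBP core TTGCNNAA, among the 4 rule genes and the genes that were highest in members of both libraries. Each line gives the 250 bases before an annotated start, 5′ to 3′ on the gene's strand, from RefSeq on GRCm38.p6, with matches on either strand in capitals. The capitals mark TTGCNNAA and, in Kng2, also the nuclear receptor half-site AGGTCA.
Pparg, the third annotated start, chr6:115421816-115422065, plus strand: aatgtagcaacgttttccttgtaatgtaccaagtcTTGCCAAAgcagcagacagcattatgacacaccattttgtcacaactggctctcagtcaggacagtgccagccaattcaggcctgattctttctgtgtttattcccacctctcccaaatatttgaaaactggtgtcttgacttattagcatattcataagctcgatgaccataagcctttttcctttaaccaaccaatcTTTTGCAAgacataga
Kng2, chr16:23029102-23029351, minus strand: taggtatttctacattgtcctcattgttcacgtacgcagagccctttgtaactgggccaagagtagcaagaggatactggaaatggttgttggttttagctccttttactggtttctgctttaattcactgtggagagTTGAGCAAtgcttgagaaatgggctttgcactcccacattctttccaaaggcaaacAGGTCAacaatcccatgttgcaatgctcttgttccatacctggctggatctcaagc
Sfrp2, chr3:83766071-83766320, plus strand: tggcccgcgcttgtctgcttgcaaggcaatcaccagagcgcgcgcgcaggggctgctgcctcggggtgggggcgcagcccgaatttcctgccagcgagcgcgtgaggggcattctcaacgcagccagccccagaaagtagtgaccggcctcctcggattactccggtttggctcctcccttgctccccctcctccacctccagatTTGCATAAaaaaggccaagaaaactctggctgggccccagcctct
The Pparg window holds the C/EBP core 215 and 16 bases before the start, the Kng2 window holds it 112 bases before, and the Sfrp2 window 45 bases before. The Kng2 half-site begins 56 bases before the start, and the matches in these windows do not overlap. Over 32851 windows of 300 bases in the RefSeq table, 10.8% hold the C/EBP core and 16.3% the half-site. A direct repeat of the half-site spaced by 1 base (DR1) is in 0.381% of windows and in none of these. Of 16 genes looked up, 10 had an entry, and Lpl, Hp, Ggt5, Kng1, Fbn2 and Gngt2 had none. The windows of the other annotated Pparg starts hold no C/EBP core. Neither do those of Cebpa, Agt, Ccl9, Wfdc17, Fgf10, Il1rn and Tmem86a. Windows not shown also hold the half-site, 28 bases before the first Pparg start, 9 before the second and 189 before an Il1rn start. A match is a description of letters, and reads from the 3′ end of transcripts do not tell which Pparg start was used.

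The members were a larger share of mesenchymal cells in the old library. They made up 6.80% of young mesenchymal cells (6.24 to 7.40) and 21.1% of old ones (20.1 to 22.1), and the values that chose them are the values compared. When each cell was thinned to 3000 UMIs, so that depth was equal, the shares were 1.65% and 6.18%. At 3000 UMIs Hp was held by 12.6% of young and 48.4% of old mesenchymal cells, against 39.6% and 48.3% for Lpl, 6.27% and 10.3% for Cebpa, and 1.45% and 3.68% for Pparg. With Hp taken out of the rule and at least 2 of the other 3 genes asked for, the shares were 13.9% and 24.9%, so the ratio of old to young went from 3.10 to 1.79. Cells just outside the rule, with 2 of the 4 genes, were 20.9% of young and 45.7% of old mesenchymal cells, and cells just inside, with 3, were 6.26% and 18.2%.

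**Figure D1:**
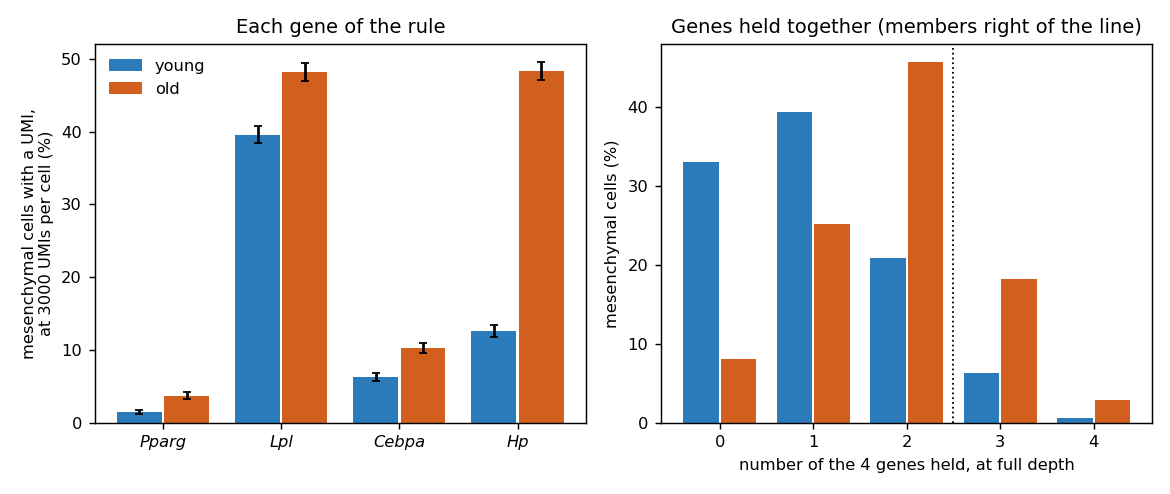
Left, percent of mesenchymal cells with at least 1 UMI of each rule gene after thinning to 3000 UMIs per cell, with exact 95% binomial intervals (counting error only). Right, percent of mesenchymal cells by the number of the 4 genes held at full depth, with members to the right of the dotted line. Hp was held by 12.6% of young and 48.4% of old cells, and those with exactly 2 genes were 20.9% in the young library against 45.7% in the old one.

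The background level of Hp was read from endothelial barcodes, the cells that line vessels. In the old library 16.1% of them held an Hp UMI at 3000 UMIs, and 49.8% at their full median depth of 11804 UMIs. Old mesenchymal cells, members or not, held it in 48.4% at 3000 UMIs, and in 74.5% at their full median depth of 8627.5 UMIs. The 16 endothelial barcodes of the young library had 0 Hp UMIs, which is too few cells to set a level. Cebpa was held by 4.66% and Pparg by 14.5% of old endothelial barcodes at full depth, against 23.5% and 9.73% of old mesenchymal cells. The most Hp UMIs in 1 old endothelial barcode was 119. The 88 old adipocyte barcodes held Hp at 5944, Lpl at 4452, Cebpa at 428 and Pparg at 99.1 CPM. Old members held them at 870, 546, 119 and 41.3 CPM. How far free RNA set the Hp share of old mesenchymal cells was not tested. Nor was the part of adipocyte RNA or doublets in how often the 4 genes were held together.

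The 4 genes went together, and since they also chose the members this is given as a description. A cell that held more of the other 3 genes had a higher level of the gene left out, in each library and for each gene. Lpl stood at 163 CPM in young cells with none of the other 3 genes, 407 with 1, 673 with 2 and 1187 with all 3. In the old library the same steps were 164, 279, 414 and 793 CPM. Cebpa went through 6.70, 18.5, 41.9 and 85.9 CPM in the young library and through 13.7, 25.3, 37.4 and 75.4 CPM in the old library. Pparg was lowest throughout, from 2.67 to 13.0 CPM in young and from 7.83 to 22.2 CPM in old cells. Hp went from 18.6 to 184 CPM in young and from 193 to 1257 CPM in old cells. Median depth per class lay between 7989 and 9085 UMIs in the young library and between 8433 and 8820 in the old library, so the classes were close in depth.

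**Figure D2:**
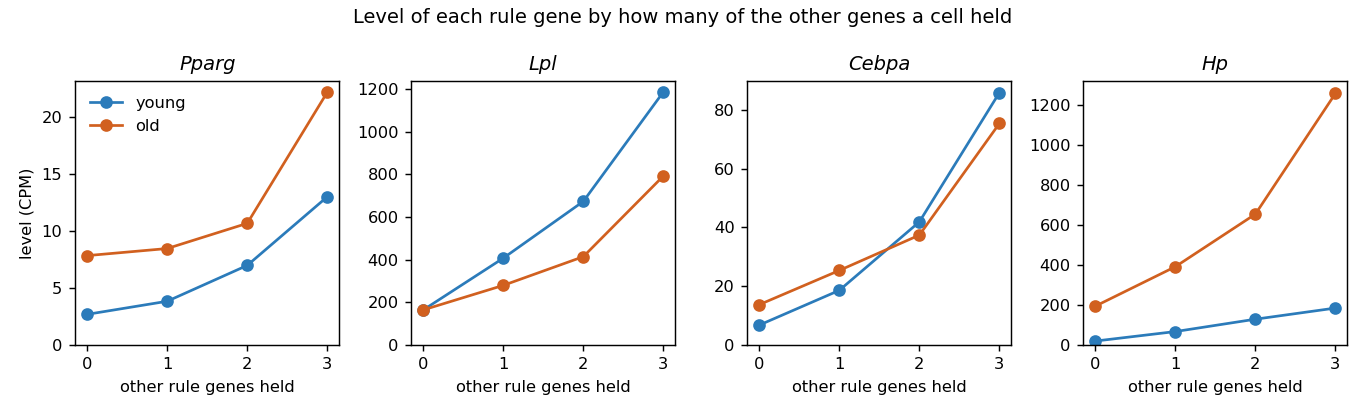
Level of each rule gene (CPM, linear axis from 0) in mesenchymal cells grouped by how many of the other 3 rule genes they held, for the young and the old library. Every line ends higher than it starts, for example Lpl from 163 to 1187 CPM in young and from 164 to 793 CPM in old cells.

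Members and cells with none of the genes were next compared within each library, gene by gene, with equal numbers of cells drawn from each class in every depth bin (499 against 499 young cells, 506 against 506 old cells). A gene was tested where at least 20 UMIs were expected in both classes and was called at 2-fold or more. In the young library 367 of 9203 genes were called higher in members (3.99%) and 228 lower (2.48%). In the old library 172 of 9361 were called higher (1.84%) and 93 lower (0.993%). Called in the same direction in both libraries were 66 genes higher (0.747%) and 32 lower (0.362%) of 8835 tested in both, and 4 genes (Cdo1, Col27a1, Ism1 and Smpd3) were called in opposite directions. The 66 genes were 20.4% of the 324 higher in the young library and 48.9% of the 135 higher in the old library. With median-of-ratios scaling the old split was 132 higher and 112 lower in place of 172 and 93.

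Ranked by the ratio nearer to 0, Ggt5, Kng1, Kng2 and Agt stood highest in members of both libraries. Ggt5, a gamma-glutamyl transferase of glutathione and leukotriene metabolism (chromosome 10, 75589340 to 75617200), had 92 UMIs in young members (19.997 CPM) and 6 in the drawn cells with none (1.30 CPM). In old cells it had 69 and 7 UMIs, 15.5 and 1.57 CPM. The log2 ratios were 3.94 (2.76 to 5.42) and 3.30 (2.18 to 4.67). Agt, angiotensinogen, the precursor of the angiotensin peptides (chromosome 8, 124556534 to 124569706), stood at 11.95 against 1.08 CPM in young and 14.6 against 2.02 CPM in old cells. Its log2 ratios were 3.46 (2.15 to 5.14) and 2.85 (1.84 to 4.04). Both genes were higher in members in each library, on fewer than 10 UMIs in the drawn cells with none.

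Kininogens, the precursors of the kinin peptides, followed the same direction. Kng1 (chromosome 16, 23057865 to 23082078) had 54 UMIs in young members and 2 in cells with none, a log2 ratio of 4.76 (2.84 to 7.84), and 98 against 10 in old cells, 3.29 (2.35 to 4.40). Kng2 (chromosome 16, 22985854 to 23029482) had 69 against 1 UMIs in young cells, 6.11 (3.59 to 11.4), and 197 against 26 in old cells, 2.92 (2.33 to 3.57). With all cells in place of the drawn ones the young Kng2 value was 4.76, and without Hp in the rule it was 3.88. The pair are close copies of each other on chromosome 16, so reads could have been split between them and the values of each are uncertain.

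Ccl9, a chemokine, came next and stood at 121 against 8.24 CPM in young and 128 against 20.7 CPM in old cells, with log2 ratios of 3.88 and 2.63. Il1rn, the interleukin-1 receptor antagonist, had ratios of 2.90 and 1.85, Fgf10, a growth factor of adipose and lung development, 2.10 and 1.964, and Sfrp2, a secreted binder of Wnt proteins, 2.17 and 2.45. Wfdc17, a small secreted protein of the whey acidic protein family, had ratios of 4.06 and 2.11, but its 50 young UMIs came from 15 cells, with 12 in 1 cell. Fbn2, an elastic microfibril protein, was at 75.2 against 15.8 CPM in young cells and at 12.1 against 1.80 CPM in old cells, so it was lower in both old classes, with ratios of 2.25 and 2.75. Gngt2, a G protein subunit, had ratios of 2.48 and 2.20 and Tmem86a 1.74 and 1.73. Over 8 other settings each of these 12 genes stayed above 2-fold in both libraries, the lowest being Tmem86a at 1.31 and 1.21, while the young values of Ggt5 ranged from 3.02 to 4.16, of Agt from 2.98 to 4.53, of Kng1 from 4.18 to 5.56 and of Il1rn from 2.25 to 3.36.

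The 8 genes lowest in members of both libraries were Eln, Tbx20, Tcf21, Jph2, Ptn, Ankrd1, Pappa and Ltbp4. Eln, elastin (chromosome 5, 134702593 to 134747323), was at 10.0 CPM in young members against 81.1 CPM in cells with none, and at 6.51 against 58.6 CPM in old cells. Its log2 ratios were -3.02 (-3.50 to -2.58) and -3.17 (-3.78 to -2.61). Tbx20, a T-box factor of heart development, had ratios of -2.66 and -2.95, and -1.79 in the young library with another seed. Tcf21, a mesenchymal bHLH factor, had -2.18 and -1.74, and Jph2, which ties the plasma membrane to the calcium store in muscle, -1.92 and -1.93. Ptn, pleiotrophin, a heparin-binding growth factor, had -1.71 and -4.73, the latter from 2 against 53 UMIs, and -2.56 without Hp in the rule. Ankrd1, a stretch-responsive muscle protein, had -2.002 and -2.19, and -0.81 in the old library without depth balance. Pappa, a protease of IGF-binding proteins, had -1.61 and -1.64 and Ltbp4, which binds latent TGF-β, -1.58 and -2.44. Pappa lost the 2-fold size in both libraries and Ltbp4 in the young library under at least 1 other setting.

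**Figure D3:**
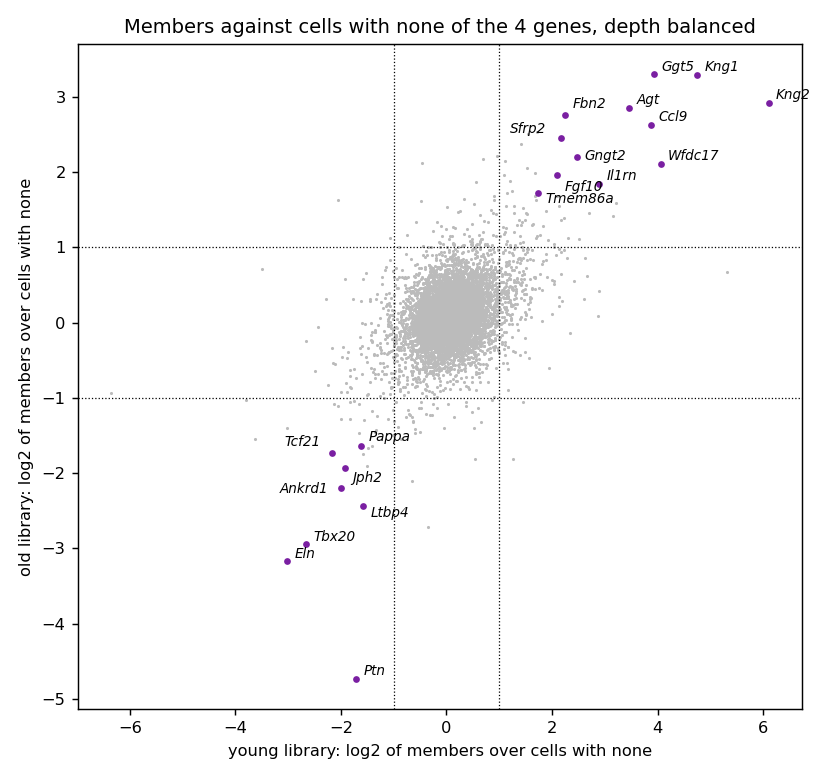
Each point is 1 of the 8835 genes tested in both libraries, placed by its log2 ratio of members over cells with none of the 4 genes in the young (x) and old (y) library, depth balanced. Dotted lines mark 2-fold, and the 12 highest and 8 lowest genes by the smaller of the ratios in both libraries are named, from Kng2 (6.11 and 2.92) to Eln (-3.02 and -3.17).

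The level of genes outside the rule also followed the number of rule genes held. Fabp4, the fatty acid carrier of adipocytes and other cells (chromosome 3, 10204088 to 10208576), stood at 100, 131, 202, 295 and 480 CPM in young cells holding 0, 1, 2, 3 and 4 genes, and at 75.8, 85.7, 121, 198 and 452 CPM in old cells. Igfbp4, a binder of insulin-like growth factors, went from 127 to 744 CPM in young and from 367 to 1044 CPM in old cells. Eln went the other way, through 95.7, 29.3, 18.1, 9.92 and 10.9 CPM in young and 58.0, 24.2, 10.2, 6.33 and 3.16 CPM in old cells. Saa3, an acute-phase apolipoprotein, did not follow the number of genes in the young library, at 19.1, 52.1, 97.2, 20.3 and 10.9 CPM. Ggt5 was highest at 3 genes in the young library (20.8 CPM) and lower at 4 (10.9 CPM), where only 40 cells were counted. For the adipocyte genes Plin1, Cidec, Retn, Lep, Car3 and Ucp1 together, the same young steps were 0.598, 0.654, 2.43, 6.38 and 2.73 CPM. In old cells they were 5.34, 8.43, 7.75, 9.20 and 13.2 CPM. The part of adipocyte RNA in the levels of this paragraph was not tested.

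**Figure D4:**
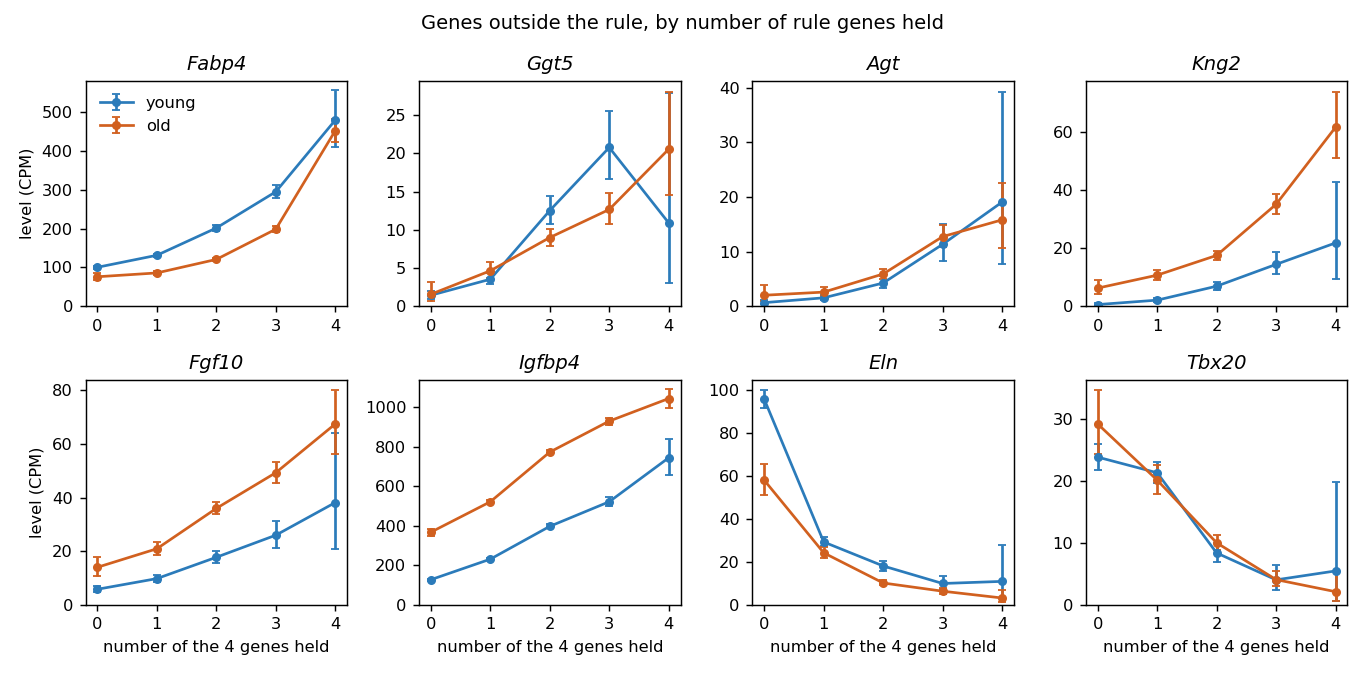
Level (CPM, linear axes from 0) of 8 genes outside the rule in mesenchymal cells holding 0 to 4 of the rule genes, with exact 95% Poisson intervals (counting error only). Fabp4 goes from 100 to 480 CPM in young and from 75.8 to 452 CPM in old cells, while Eln goes from 95.7 to 10.9 and from 58.0 to 3.16 CPM.

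Gene lists were read against the share of all tested genes that was called, 3.99% higher and 2.48% lower in the young library and 1.84% and 0.993% in the old one. Of 24 factors that promote adipogenesis, 21 could be tested in the young library and 5 were called higher and 1 lower, against 1 higher and 0 lower of 18 in the old library. The medians were 0.34 and 0.30, beside 0.04 and 0.08 over all genes tested. Ebf1, Ebf2 and Ebf3 are early B-cell factors that act upstream of Pparg in precursors. Ebf3 was called in both libraries, at 2.30 and 1.12, Ebf1 reached 1.90 in young and 0.92 in old cells, and Ebf2 1.998 and 0.11. Klf15 (1.05) and Nr1h3, a liver X receptor (1.10), were called in the young library. Bmp4, which commits precursors to the fat lineage, went the other way in young cells, at -6.35 from 1 against 82 UMIs. It was at -0.94 in old cells, and at -2.75 in young cells without Hp in the rule.

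Of 24 genes of committed preadipocytes, 5 were called higher and 1 lower of 18 tested in young, and 5 higher and 0 lower of 19 in old cells, with medians of 0.61 and 0.43. Fabp4 (1.67 and 1.68), Agt and Ggt5 were called in both libraries. Col15a1, a basement membrane collagen, was at 1.95 in young and at -0.60 in old cells. Of 25 genes of lipid uptake and storage, 2 of 15 tested were called higher in young cells (Fabp4 and Angptl2) and 1 of 15 in old cells (Fabp4). Of the 18 genes of triglyceride breakdown and synthesis, 0 of 9 were called in young and 1 of 9 in old cells (Dgat2, 1.33). Plin2, the coat protein of lipid droplets, had ratios of 0.04 and 0.71, and Angptl4, an inhibitor of lipoprotein lipase, -0.18 and 0.74. Of 24 genes of mature adipocytes only 5 and 6 could be tested, and the rest were too low for a ratio.

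Of 29 genes that restrain adipogenesis, 2 were called higher and 5 lower of 24 in young cells, and 2 higher and 1 lower of 25 in old cells. Sfrp1 (1.28 and 1.21) and Sfrp2 were higher and Tcf21 lower in both libraries. The markers of the Dpp4 progenitor class, held to sit earlier in the lineage, gave 3 higher and 2 lower of 12 in young, and 0 higher and 1 lower of 15 in old cells. Dpp4 itself was too low to test, with 15 and 9 UMIs in all members. Among acute-phase and complement genes, 4 of 13 were called higher and 1 lower (Clu, clusterin) in young cells, and 8 of 17 higher and 0 lower in old cells. Hp, itself an acute-phase gene, was part of the rule, so these counts are not independent of how the members were chosen. The young median of the list was 0.29, and 0.35 without Hp in the rule. The old median was 0.97, and its value without Hp in the rule is not given here. Ptx3, a pentraxin, was higher in both, at 905 against 202 CPM and at 1741 against 677 CPM, as was complement C4b (1.28 and 1.56). Lcn2 (1.88) and Saa3 (1.54) were called in the old library. Of 20 genes of insulin and IGF signalling, 18 were tested in each library, with medians of -0.06 and 0.05. Called were 2 higher and 2 lower in young cells, and 2 higher and 1 lower in old cells. Among them Igfbp4 was higher (1.89 and 1.48) and Igfbp2 lower (-3.63 and -1.54) in both libraries. Of 18 contractile genes tested, 4 were called lower in young members (Itga8 at -3.43, Myh11 at -2.50, Des and Cnn1) and 1 higher (Mylk at 1.27), and 0 were called in the old library. Of 22 genes of oxidative phosphorylation and 17 of DNA replication 0 were called in either library.

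Markers of the F3 stromal class gave 4 higher (F3, Igfbp3, Cygb and Fgf10) and 1 lower (Fmo2) of 8 in young cells, and 2 higher (Fgf10 and Rarres2) and 0 lower of 8 in old cells, with medians of 0.79 and 0.23. Fgf10 was the 1 member of that list called in both libraries. Of 20 thermogenic genes only 2 and 3 could be tested, with Ebf2 the 1 called, in young cells.

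Markers of other cell types were summed in the same classes. The smooth muscle list summed to 1768 CPM in young members and 2787 CPM in cells with none, and to 1996 and 2400 CPM in old cells. The Schwann list was lower in members (6.96 against 17.8 CPM young, 5.82 against 30.2 CPM old), with Sox10 at 0 by the rule. The macrophage list was at 18.5 against 12.9 CPM in young and at 99.6 against 60.5 CPM in old cells, with 5 of 11 markers at 0 in young members (Ptprc, Adgre1, C1qa, C1qb and Tyrobp) and only Ptprc at 0 in old members. The endothelial list was at 77.4 against 76.3 CPM and at 108 against 116 CPM. The pericyte list was higher in young members (214 against 157 CPM), and was at 233 against 235 CPM in old cells. The mesothelial list was also higher in young members (34.8 against 15.4 CPM) but not in old ones (17.8 against 20.7 CPM), with Upk3b at 0 by the rule. Their part in the results was not tested.

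The ratio of members over cells with none was larger in the old library for Bmp4, Tnfsf15, Cdo1, Serpinb9b and Ptgs2, and smaller for Kng2, Ptn, Serpinb2, Col27a1 and Dio3, the 5 genes each way with the largest difference. Ptgs2, the inducible cyclooxygenase, was at 16.1 CPM in young members and 77.9 CPM in young cells with none (-2.28), and at 221 and 178 CPM in old cells (0.31). Dio3, which inactivates thyroid hormone, was at 33.3 and 4.56 CPM in young cells (2.87) and at 15.9 and 15.1 CPM in old cells (0.08). Tnfsf15, a TNF family ligand, had ratios of -3.50 and 0.72, but the old value was -0.57 without Hp in the rule and 0.06 without depth balance. Serpinb9b and Serpinb2, serine protease inhibitors, had -3.80 and -1.02, and 5.32 and 0.68, the young Serpinb2 value resting on 1 UMI in cells with none and being 2.35 without Hp in the rule. Whether these differences between the libraries exceed the spread between mice was not tested.

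Members with and without a Pparg UMI were also compared, a comparison chosen after the data were seen. The classes differed in the other rule genes by construction, since every member without Pparg held Lpl, Cebpa and Hp, while 40 of the 135 young and 188 of the 474 old members with Pparg held all of them. In the young library 9 of 5896 genes were higher with Pparg (0.153%) and 17 lower (0.288%), and in the old library 8 of 9584 were higher (0.0835%) and 9 lower (0.0939%). Fabp4 was at 303 CPM with and 313 CPM without Pparg in young members, and at 293 and 201 CPM in old members. Plin2 had 47.3 CPM with and 42.5 CPM without Pparg in young members, and 45.2 and 39.6 CPM in old members. Cd74, an immune chaperone, was higher with Pparg in old members, but 78 of its 86 UMIs lay in 1 cell.

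Old and young members were compared over all their UMIs, 4600619 young and 13740807 old. Of 9506 genes tested, 792 were higher in old members (8.33%) and 236 lower (2.48%). In cells with none of the genes 512 of 9161 were higher (5.59%) and 326 lower (3.56%). With median-of-ratios scaling, which moved the median gene by 0.12 in members and 0.16 in cells with none on the log2 scale, the counts were 638 higher and 315 lower in members and 374 and 451 in cells with none. Whether members and cells with none differed in their response to age was not tested.

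Acute-phase and chemokine genes were among the 12 highest. Saa3 was at 19.6 CPM in young and 1840 CPM in old members, a log2 ratio of 6.56 (6.26 to 6.87). In cells with none it was at 19.1 and 681 CPM. Cxcl1, a neutrophil-attracting chemokine, went from 50.0 to 3718 CPM (6.22, 6.03 to 6.41), and Cxcl5 from 43.7 to 2990 CPM (6.10, 5.90 to 6.30). Cells with none went from 14.3 to 2941 CPM for Cxcl1 and from 17.5 to 2038 CPM for Cxcl5, so old cells were higher in both classes. Lcn2, lipocalin 2, an iron-siderophore carrier, went from 2.83 to 202 CPM (6.16, 5.39 to 7.07). Cxcl2 rested on 4 young and 1230 old UMIs (6.69, 5.33 to 8.56).

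Csf3, the granulocyte colony factor, had 0 UMIs in young members and 868 in old members, 96.9-fold higher when the 0 is set to the floor of 3 UMIs. Ccl11 (eotaxin), Pf4, Ccl5, Rgs5, Star and Cxcl3 rested on 1 young UMI each. The widths show it, with log2 ratios of 7.54 (5.06 to 12.9) for Ccl11 and 7.14 (4.65 to 12.4) for Pf4. Single cells carried much of some of them, 171 of the 252 Ccl5 UMIs and 114 of the 421 Pf4 UMIs. Pf4 is also one of the macrophage markers. Old endothelial barcodes held Csf3 at 1001 CPM and Cxcl2 at 268 CPM, against 63.2 and 89.5 CPM in old members. The part of free RNA or of macrophages in these genes was not tested.

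By list, 17 of 19 inflammatory secreted genes were higher in old members with a median of 4.15, beside 0.16 over all genes tested, and 14 of 17 in cells with none (median 4.34). Ccl2 was at 92.8 and 3159 CPM, and Il6 at 33.0 and 995 CPM. Of the acute-phase and complement genes 14 of 17 were higher (median 1.58), and 10 of 15 in cells with none. The Dpp4 progenitor markers were higher for 9 and lower for 1 of 15 (median 1.48). Pi16, a peptidase inhibitor that marks adventitial progenitors, went from 1.52 to 61.1 CPM (5.33, 4.28 to 6.65), and Igfbp5 from 4.78 to 95.6 CPM. Cells with none gave 10 higher and 1 lower of 16 for the same list. Of the adipogenic factors 1 was higher (Bmp4, 4.91, on 1 young UMI) and 0 lower of 21, with a median of -0.08. The genes of committed preadipocytes gave 8 higher and 1 lower of 20 in old members (median 0.32). For that list cells with none gave 8 higher and 1 lower of 17 (median 0.63).

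Of 16 genes of retinoid, thyroid and steroid handling, 6 were higher and 2 lower in old members. Among them Aldh1a2, a retinoic acid synthase, had 56 young and 960 old UMIs (2.52) and Aldh1a1, another, 395 and 233 UMIs (-2.34), while cells with none had ratios of 0.96 and -2.45. For the retinoid, thyroid and steroid list cells with none gave 4 higher and 2 lower of 15. Matrix genes gave 5 higher and 6 lower of 35 in members (median -0.09), and 11 higher and 4 lower of 35 in cells with none (median 0.43). Oxidative phosphorylation gave 0 of 22 either way in members. Of 25 genes that respond to tissue dissociation, 5 were higher and 1 lower in old members, with Atf3 at 2.48 and Fos at -1.04, and 6 higher and 0 lower in cells with none. Their part in the age ratios was not tested.

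Among the genes that were higher in members, several were within 2-fold between the ages. Fabp4 was at 310 and 234 CPM (-0.41, -0.50 to -0.32), Ggt5 at 19.997 and 13.7 CPM (-0.54) and Agt at 11.95 and 13.2 CPM (0.14, -0.30 to 0.60). Ebf1 went from 504 to 319 CPM (-0.66, -0.73 to -0.59) while cells with none went from 138 to 191 CPM. Lower in old members were Slc38a4, an amino acid transporter (22.0 to 1.82 CPM, -3.59), Lfng, a modifier of Notch receptors (20.9 to 2.11 CPM, -3.31), Fbn2 (75.2 to 9.32 CPM, -3.01) and Col11a1, a fibrillar collagen (24.997 to 3.42 CPM, -2.87). Peg3, an imprinted zinc finger gene, went from 37.2 to 6.19 CPM (-2.59). Among cells with none these were also lower in the old than in the young library, for example Fbn2 from 13.7 to 1.78 CPM. Col11a1 went from 73.1 to 12.4 CPM there, above its levels in members. Sema3d, Ifi207, Plcxd2, Cmah, Ralgps2, Gldc and Fam13c completed the 12 lowest, with log2 ratios from -2.77 to -2.41.

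**Figure D5:**
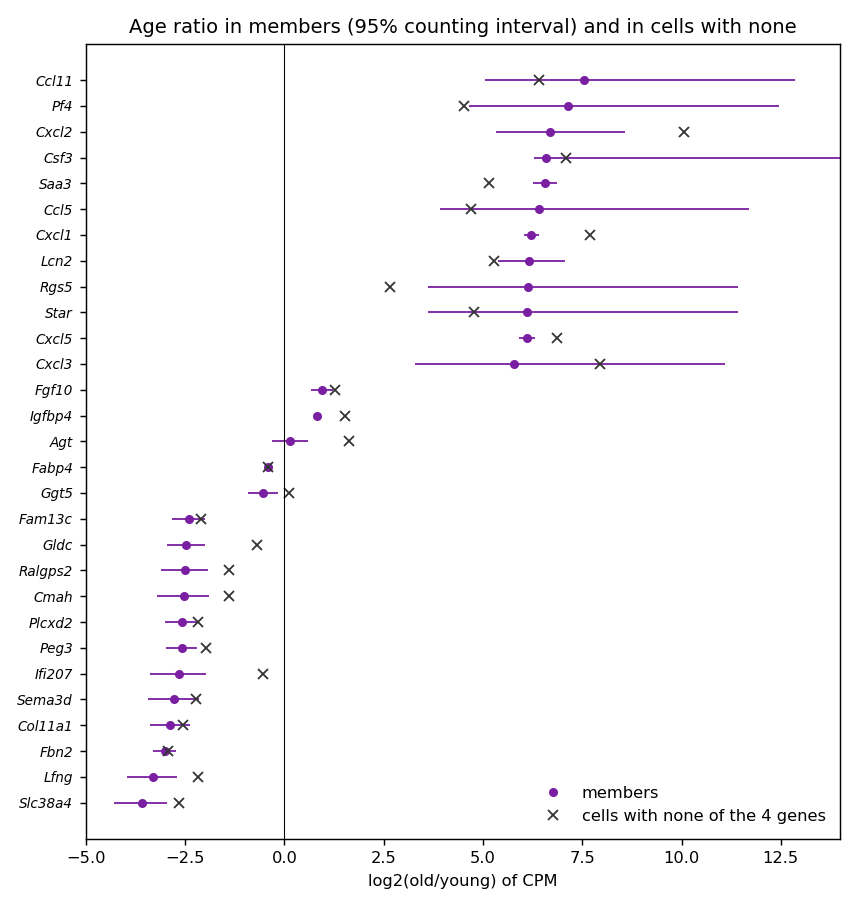
log2(old/young) of CPM in members (circles, with 95% counting intervals) and in cells with none of the 4 genes (crosses) for the 12 genes with the highest and the 12 with the lowest ratio in members, and for Fgf10, Igfbp4, Agt, Fabp4 and Ggt5. Saa3 is at 6.56 in members, Fabp4 at -0.41 and Slc38a4 at -3.59. For the Csf3 circle and the Cxcl3 cross the young class had 0 UMIs, which was set to 3 UMIs.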

How the data were processed

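The values deposited by the authors are raw counts of UMIs per gene and barcode, written by Cell Ranger 3.0.1 per the file headers, on the genome build mm10 per the submitters' processing notes. Neither the annotation release nor the rule that kept barcodes is stated. Gene coordinates come from GENCODE vM21 (GRCm38, equal to mm10), in which 31011 of 31053 genes of the files were found. Promoter sequences are from RefSeq on GRCm38.p6.

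UMIs of the cells in a class were added up and divided by the class total to give CPM. Ratios are log2 of CPM with exact conditional Poisson 95% intervals, shares carry Clopper-Pearson 95% intervals, and a class with 0 UMIs was set to 3. A gene was tested where the pooled rate expected at least 20 UMIs in both classes and was called at 2-fold or more. Members and cells with none were compared on equal numbers of cells per bin of 0.1 in log10 total UMIs, and ages over all cells. Genes of the rule were left out of all these tests. Shares were repeated after thinning each cell to 3000 UMIs, which left out 3 young and 7 old members and 121 young and 26 old cells with none. No doublet caller was used, and how many doublets remain is not known. Scripts ran in Python 3.11.15 with numpy 2.4.6, scipy 1.17.1 and pandas 2.3.3, and the ratio was tested on simulated counts.

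Named genes were the rule genes, the 12 highest and 8 lowest of members over none by the value nearer to 0 of both libraries (same sign in both), the 12 highest and 12 lowest of old over young in members, the 5 genes each way with the largest difference between the libraries' ratios, and genes of 19 lists as examples. No result of the list of fatty acid and cholesterol synthesis genes is reported here. Mitochondrial, ribosomal, haemoglobin, immunoglobulin, T cell receptor, sex chromosome marker, Gm and Rik genes were left out of the rankings. The members, lists and alternatives were chosen with earlier results of these data known. Alternatives were other rules, limits, depths, scalings, filters and seeds. Leaving out barcodes found in both libraries, or those above the 95th percentile of depth, was chosen after seeing the data.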

Additional observations from a re-analysis of the deposited data

Results flagged for a closer look

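Cdo1, cysteine dioxygenase, the first enzyme of taurine synthesis, had a log2 ratio of members over cells with none of -2.06 in the young library (21 against 88 UMIs) and of 1.63 in the old library (96 against 31 UMIs). It is listed because the ratios were 2-fold or more in opposite directions, and the difference between the libraries was not tested. Over 8 other settings the young value lay between -2.29 and -1.43 and the old value between 1.24 and 1.71.

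Col27a1, a fibrillar collagen, had 1.27 in the young library (65 against 27 UMIs) and -1.81 in the old library (12 against 42 UMIs), and is listed for the same reason. This difference was not tested either. Its old value lay between -1.89 and -0.77 over the other settings and was under 2-fold in 3 of them, with another seed (-0.94), without Hp in the rule (-0.83) and with the stricter adipocyte exclusion (-0.77).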

How the results depend on the processing

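No paired analysis was possible because each age has 1 library. The share of members, 6.80% young and 21.1% old, was 27.7% and 66.7% with at least 2 of the 4 genes, 0.545% and 2.86% with all 4, 13.9% and 24.9% without Hp, 21.1% and 61.2% without Cebpa, 7.62% and 24.7% without Lpl, and 26.3% and 64.8% without Pparg (at least 2 of the other 3 genes each). With at least 30 collagen UMIs the young share was 7.81%. At equal depth the shares were 0.534% and 2.34% at 1500 UMIs and 4.20% and 11.7% at 6000 UMIs. The old share was above the young share under each of these settings.

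Without the filter on low counts, members against none gave 1959 higher and 1511 lower in the young library and 1463 and 1649 in the old library. Old against young then gave 1555 and 3302 in members and 4404 and 894 in cells with none. How far genes with few UMIs and the floor of 3 set these counts was not tested. Without depth balance 39 genes were lower in old members than in cells with none in place of 93, and without Hp in the rule 356 genes were lower in old than in young members in place of 236; the cause was not tested. The median of the mature adipocyte list, over 5 and 6 genes, was 0.55 for young members over none and 0.50 for old over young, and turned to -0.025 with another seed and to -0.58 without the filter. The median of the F3 list was 0.37 for old over young and -0.0070 without the filter. Depth limits Pparg and Cebpa, each with a median of 1 UMI in the members that held it.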
